A study of Ovis aries with 30 samples.

Results

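The genes of the vascular endothelial growth factor (VEGF) family were followed in brown adipose tissue (BAT) and thyroid tissue of newborn lambs. The members were taken by gene name from the deposited count table and were 9 of its 28524 genes: the 4 ligands VEGFA, VEGFB, VEGFC and PGF, the 3 tyrosine kinase receptors FLT1 (VEGFR1), KDR (VEGFR2) and FLT4 (VEGFR3), and the co-receptors NRP1 and NRP2. All 9 were present under their symbols.

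VEGF ligands are secreted proteins that make blood and lymph vessels grow, survive and leak, and their receptors sit mainly on endothelial cells. VEGFA acts chiefly through KDR, FLT1 binds VEGFA, VEGFB and PGF tightly with weak kinase activity and can act as a trap, VEGFC drives lymphatic growth through FLT4, and neuropilins hold ligands near the receptors. BAT is a densely perfused heat-producing tissue in which brown adipocytes themselves make VEGFA, and the thyroid is a gland whose follicles are wrapped in capillaries.

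RNA was sequenced from both tissues of 15 Romney lambs, giving 30 libraries, with BAT taken from around the kidneys. Lambs were held for 2 days at 4 °C (cold, n = 6) or at an ambient temperature of 20 to 22 °C (AT, n = 6), and control lambs (n = 3) were sampled about 24 h after lambing with no exposure. Every library came from bulk tissue of 1 animal, so fewer cells of a type and less RNA per cell cannot be told apart. Treated lambs were also older than controls by the exposure, and exposure and age cannot be told apart in any comparison with control; the cold and AT lambs were compared at the same age.

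Counts per library totalled 31556500 to 37025998 in BAT and 25062784 to 30124871 in thyroid, but a pair of uncharacterised genes held 43.8% to 76.5% of the BAT counts, which left 8093700 to 18276329 counts for all other genes. Markers of the labelled tissues were present: UCP1, the uncoupling protein of brown fat, had a median of 7859 normalized counts in BAT against 16.4 in thyroid, and the follicular transcription factor NKX2-1 had 10777 in thyroid against 0 in BAT. A normalized count is a count divided by the library's size factor from the reference genes ACTB, RPL19 and HUWE1, computed within each tissue. Normalized counts of BAT and thyroid, as in the marker values above, are thus on separate scales. The levels per kb below used size factors over all 30 libraries together. The study used 2 of the 3 control lambs, called Control 1 and Control 3 here, and left out Control 2 in both tissues. Control 2 stood apart in BAT, with 22612 summed normalized counts over 16 endothelial markers against 67667 to 114202 in the other 14 libraries, and 347628 over 7 brown adipocyte markers against 28362 to 116766. Its thyroid library had the highest counts of the parathyroid genes PTH (7128, median 0.984), GCM2 (686, median 0) and CASR (1274, median 175). Of the follicular markers, its TSHR, FOXE1 and DUOX2 were the lowest in thyroid and its PAX8 the highest, with the others in between. In thyroid, Control 3 had the highest sum over 8 follicular markers, 5760330 against 1299420 to 2849270 elsewhere, and skeletal muscle markers reached 3138130 in the AT 3 library and 274238 in Control 1 against 90.1 to 3624 in the other 13. The fits used Controls 1 and 3 unless stated, each control is given by its own value below, and a gene was called when its log2 fold change (log2FC) was at least 1 in size and its adjusted p-value, by edgeR's quasi-likelihood test with Benjamini-Hochberg adjustment over all genes tested, was below 0.05.

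In Oar_rambouillet_v1.0, the assembly of the count table, VEGFA was annotated on the plus strand at chr20:18993252-19011145, where 10 merged exon blocks gave 3436 bases of exon. VEGFB lay at chr21:44338509-44341822, VEGFC at chr26:7718309-7809666 and PGF at chr7:89950790-89963938. Among the receptors, FLT1 spanned chr10:33435521-33643015, KDR chr6:77717017-77764150 and FLT4 chr5:276615-317875. NRP1 was at chr13:19920967-20067665 and NRP2 at chr2:221956254-222075949. Counts were summed over all exons of a gene, so soluble and membrane-bound forms of FLT1, or the VEGFA splice forms, were not separated. VEGFA also had a primer pair for RT-qPCR in the study, printed 5′ to 3′ in lower case because VEGFA was the ligand called against control in both tissues:
VEGFA forward: gggctgctgtaatgacgaaagt
VEGFA reverse: ctggctttggtgaggtttgatc

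The tissues carried the family in different proportions. Levels per kb of exon, normalized over all 30 libraries together, were compared in the 12 treated lambs, and every level in this paragraph is a median over those lambs in normalized counts per kb. In BAT the order was VEGFB (2610), NRP1 (1341), KDR (1111), VEGFA (845), FLT1 (262), VEGFC (155), FLT4 (128), NRP2 (86.5) and PGF (82.8). Neighbours in that order had overlapping ranges over lambs, except VEGFA with 557 to 1581 and FLT1 with 105 to 494. In thyroid the order began with VEGFA (2237) and VEGFB (1683), followed by VEGFC (277), NRP1 (223), KDR (217), FLT4 (96.7), FLT1 (76.1), NRP2 (37.2) and PGF (4.20). Here VEGFB, with a lowest lamb at 1315, stood clear of VEGFC, whose highest was 364. KDR, with a lowest lamb at 177, stood clear of FLT4, whose highest was 135, and NRP2, with a lowest lamb at 26.7, stood clear of PGF, whose highest was 8.63.

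**Figure D1:**
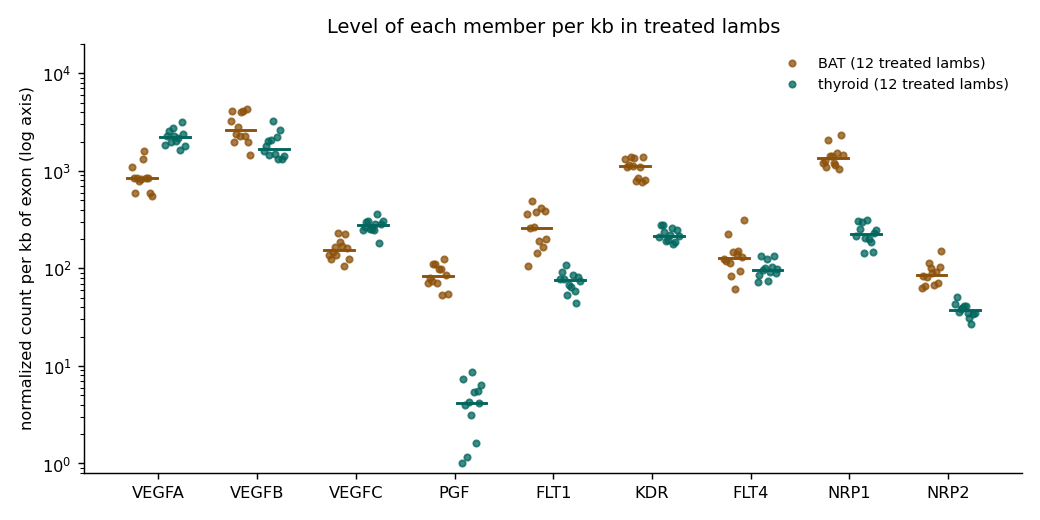
Level of each member in normalized counts per kb of exon (log axis) in BAT and thyroid of the 12 treated lambs; each point is a library and each bar the median. VEGFA was higher in thyroid (medians 2237 against 845), while PGF, FLT1, KDR, NRP1 and NRP2 were higher in BAT.

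Tested directly in the treated lambs, 6 of the 9 members were called between the tissues, beside 40.6% of the 17021 genes tested. VEGFA was higher in thyroid, with a log2FC of 1.35 ± 0.19 (SE; 2.54-fold; adjusted p = 5.3e-07, edgeR). The log2FC of thyroid against BAT was negative for the other called members. PGF, a ligand of FLT1, had the largest difference at -4.40 ± 0.24, which is 21.1-fold. The co-receptor NRP1 had -2.63 ± 0.15, KDR -2.25 ± 0.12, FLT1 -1.82 ± 0.17 and NRP2 -1.25 ± 0.16. Differences under the fold threshold were measured for VEGFC (0.79 ± 0.12), VEGFB (-0.59 ± 0.17) and FLT4 (-0.49 ± 0.21). The median of all genes in the same comparison was -0.34, and 64.3% of them were lower in thyroid. Under median-of-ratios scaling NRP2 was at -0.90 and was no longer called while VEGFC, at 1.19, was, and TMM scaling called VEGFC (1.06) beside the 6.

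In BAT, VEGFA was lower in both treated groups than in the mean of the study's controls, but the controls themselves lay far apart. Control 1 had 8541 normalized counts of VEGFA, Control 2 had 1350 and Control 3 had 2594. Cold lambs ranged from 1211 to 2400 with a median of 1777, and AT lambs from 1148 to 3257 with a median of 1753. All 6 cold lambs were below Controls 1 and 3, 2 AT lambs were above Control 3, and Control 2 lay within both treated groups. The fitted log2FC was -1.79 ± 0.38 in cold (adjusted p = 0.0341, edgeR) and -1.53 ± 0.39 in AT (adjusted p = 0.0227, edgeR), which corresponds to 3.46-fold and 2.90-fold lower levels. Both calls depended on Control 1, and both were also lost when Control 2 took the place of Control 3. Against Control 3 alone the log2FC was -0.71 and -0.43, neither called, and against Control 2 alone it was 0.37 and 0.70. With Control 2 in the place of Control 1, the log2FC was -0.22 in cold and 0.08 in AT, and with all 3 controls it was -1.29 (adjusted p = 0.0831, edgeR) and -1.02 (adjusted p = 0.126, edgeR). With all 3 controls and TMM scaling, an alternative chosen after seeing the data, VEGFA was called lower in both. Leaving out 1 treated lamb ended the cold call in 3 of 12 fits (those omitting cold 2, cold 3 and cold 6, with adjusted p up to 0.0582, edgeR), and the AT call was lost when the cold lambs were left out of the fit (-1.57; adjusted p = 0.0595, edgeR).

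**Figure D2:**
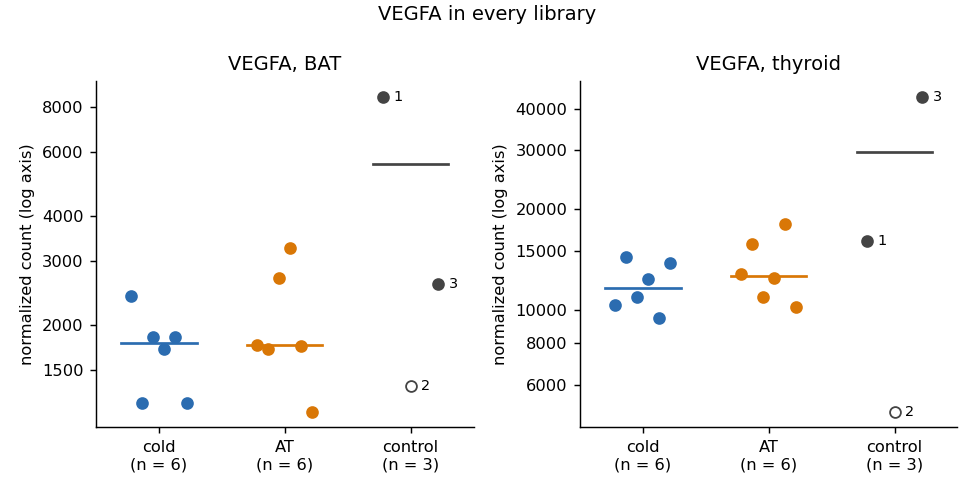
VEGFA in normalized counts (log axis) in every library of BAT (left) and thyroid (right), by group; points are lambs, bars are medians (for control, of Controls 1 and 3), numbers name the control lambs and the open point is Control 2, left out by the study. In BAT, Control 1 (8541) stood above all others, and in thyroid, Control 3 (43360) did.

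VEGFA was the member called in BAT of cold lambs against control, where 1.21% of the 14905 genes tested were called. For the 8 others no call was made. FLT1 gave -0.72 ± 0.30 and KDR -0.75 ± 0.21 (adjusted p = 0.0710, edgeR). NRP2 gave -0.82 ± 0.29, and the remaining 5 members lay between -0.33 and 0.38. For FLT1 and KDR all 6 cold lambs were below Controls 1 and 3, but with all 3 controls the log2FC moved to -0.31 and -0.14.

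In AT lambs against control, FLT1, KDR and VEGFA were called in BAT, 3 of 9 members beside 6.02% of all genes. FLT1, the high-affinity receptor, had 2449 normalized counts in Control 1, 1072 in Control 2 and 3012 in Control 3. AT lambs had 467 to 1240 with a median of 784, all below Controls 1 and 3, and 1 of them was above Control 2. The log2FC was -1.86 ± 0.29 (3.62-fold lower; adjusted p = 0.00253, edgeR). It was -1.44 with all 3 controls and remained called (adjusted p = 0.00946, edgeR). FLT1 stayed called under each scaling, filter and tool tried and in all 12 fits that left out 1 treated lamb. Against Control 1 alone it was -1.69 (adjusted p = 0.0542, edgeR) and against Control 2 alone -0.34, neither called.

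KDR, the main signalling receptor of endothelial cells, had 7415 normalized counts in Control 1, 736 in Control 2 and 8571 in Control 3. AT lambs had 2930 to 4530 with a median of 3152, and cold lambs 4352 to 5653 with a median of 5246. Every treated lamb thus lay below Controls 1 and 3 and far above Control 2. The log2FC was -1.29 ± 0.20 in AT (2.44-fold lower; adjusted p = 0.00276, edgeR) and became -0.68, not called, with all 3 controls. It was -1.16 against Control 1 alone (adjusted p = 0.0632, edgeR) and -1.39 against Control 3 alone (adjusted p = 0.0264, edgeR). Against Control 2 alone KDR was called in the opposite direction, at 2.33 in AT and 2.83 in cold.

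The co-receptor NRP1 also lay below both controls of the study in every AT lamb without passing the test. Control 1 had 5726 normalized counts and Control 3 had 7518, against 3835 to 5546 in AT lambs with a median of 4551, and Control 2 had 1493. The log2FC was -0.59 ± 0.27 (adjusted p = 0.175, edgeR). NRP2 had 1142, 309 and 623 normalized counts in Controls 1, 2 and 3 and 411 to 928 in AT lambs, and FLT4 had 752, 147 and 507 with 214 to 1097 in AT lambs. Treated and control values overlapped for both, with a log2FC of -0.67 ± 0.30 and -0.50 ± 0.43.

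VEGFB, the ligand that binds FLT1 but not KDR, differed in the other direction in BAT without passing the test. Controls 1, 2 and 3 had 1655, 1677 and 1283 normalized counts, and AT lambs had 1198 to 3529 with a median of 3401. The log2FC in AT was 0.90 ± 0.36 (adjusted p = 0.123, edgeR). The AT 6 library held the lowest value, and without it VEGFB was called higher, at 1.04 (adjusted p = 0.0151, edgeR). Cold lambs had 1632 to 2830 with a median of 1963, a log2FC of 0.38 ± 0.34. VEGFC gave -0.13 ± 0.27 in AT, and PGF, at 40 to 113 reads in treated lambs, gave 0.55 ± 0.35; the groups overlapped for all 3 ligands.

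Cold and AT lambs were compared in BAT without use of the control values as a baseline. FLT1 was called, 1 of 9 members beside 0.275% (41) of the 14905 genes. Cold lambs had 1154 to 2325 normalized counts with a median of 1726, against 467 to 1240 with a median of 784 in AT lambs. A single AT lamb (AT 2, at 1240) lay above the lowest cold lamb (cold 2, at 1154), and the groups were otherwise apart. The log2FC of cold against AT was 1.14 ± 0.22 (2.21-fold higher; adjusted p = 0.0399, edgeR), and an exact 2-sided permutation test of the mean log2 value gave p = 0.00433 (n = 6 in each group). Its size was stable, at 1.03 to 1.31 in the 12 fits without 1 treated lamb, but the call was not: it was lost in 9 of those 12 fits (adjusted p up to 0.148, edgeR), with the RNA integrity number as a covariate (1.15; adjusted p = 0.0574, edgeR), and when Control 2 entered the shared estimate of spread (1.14; adjusted p = 0.230, edgeR). The edgeR call was lost as well with only the cold and AT lambs in the fit, and with Control 2 in the place of Control 1 or Control 3. DESeq2's Wald test called FLT1 at an adjusted p of 0.000315.

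KDR went the same way by a smaller amount, 0.54 ± 0.15, with an adjusted p of 0.169 (edgeR) and an exact 2-sided permutation p of 0.00649 (n = 6 in each group). Only the AT lambs' highest value, 4530, lay above the lowest cold values of 4352 and 4426. The exact tests were 2 of 54 made over members, tissues and comparisons. NRP1 gave 0.38 ± 0.20 and VEGFB -0.52 ± 0.24, and VEGFA, at -0.26 ± 0.29, overlapped broadly between cold and AT. No exact test against the 2 controls could go below p = 0.0714.

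**Figure D3:**
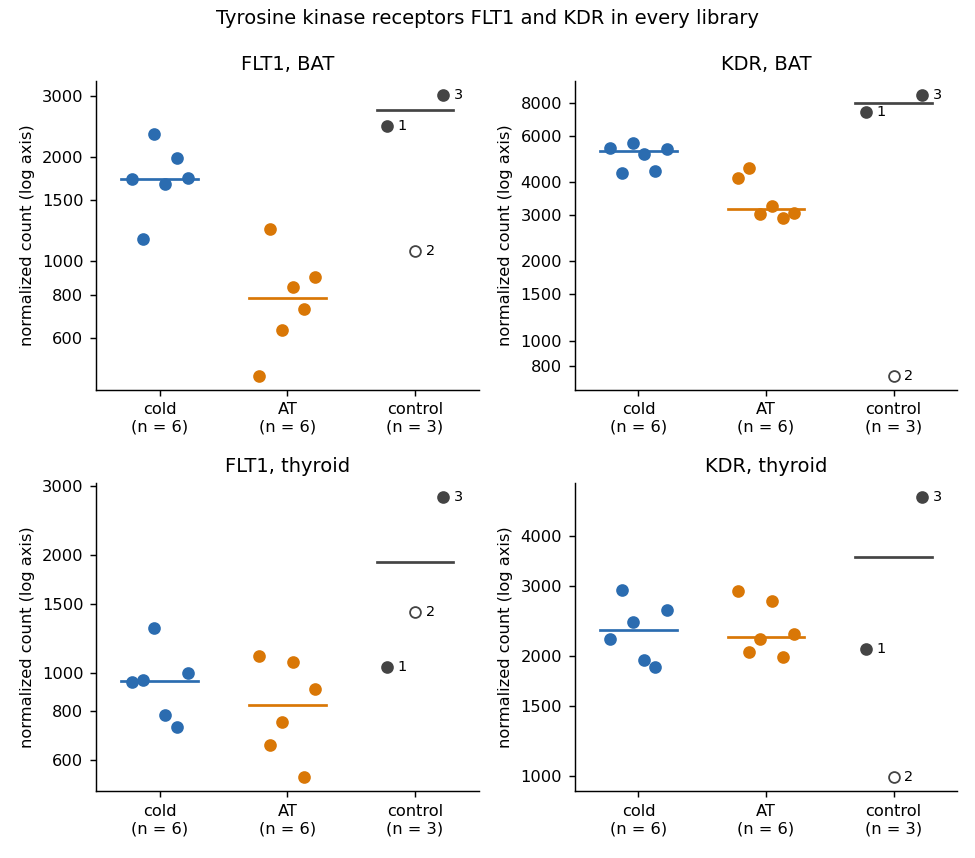
FLT1 (left) and KDR (right) in normalized counts (log axis) in every library of BAT (top) and thyroid (bottom); points, bars, numbers and the open point as for VEGFA. In BAT, AT lambs lay below cold lambs for both receptors except AT 2, which was above the lowest cold lambs (FLT1 1240 against 1154, KDR 4530 against 4352), and all treated lambs lay below Controls 1 and 3; in thyroid the treated groups overlapped.

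The receptors were also set against other endothelial genes of the same library. As a ratio to the geometric mean of 16 endothelial markers, all per kb, FLT1 in BAT was 0.354 in Control 1 and 0.395 in Control 3, 0.160 to 0.299 in cold lambs and 0.0823 to 0.168 in AT lambs. KDR by the same ratio was 1.25 and 1.31 in those controls, 0.614 to 0.843 in cold and 0.495 to 0.852 in AT. Both receptors were thus lower in treated lambs than in Controls 1 and 3 relative to the markers as well, and the cold and AT ranges overlapped at their edge for FLT1 and broadly for KDR. Of the 16 markers, 1 was called in AT against control, the TGF-beta co-receptor ENG at -1.25, beside 6.02% of all genes. The median log2FC of the list was -0.04 beside -0.03 for all genes. ENG was called in cold against AT too, at 1.40 ± 0.23 (adjusted p = 0.0196, edgeR), beside a list median of 0.20. In that comparison 0.275% of all genes were called. Of 8 pericyte and smooth muscle markers, 3 were called lower in AT than in control (ACTA2 -1.68, TAGLN -1.23, KCNJ8 -1.05), beside 6.02% of all genes. The list median was -0.99. Their summed level was 12201 to 21800 in AT, 19794 to 35753 in cold, and 25898, 20010 and 37962 in Controls 1, 2 and 3. The part of these cells in the receptor values was not tested.

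Control 2 differed from all other lambs in the balance of KDR and FLT1. The ratio of KDR to FLT1 per kb was 0.801 in its BAT and 0.804 in its thyroid, while the 28 other libraries lay between 2.07 and 10.3. Relative to the endothelial markers, its FLT1 (0.597 in BAT, 0.596 in thyroid) was the highest of all controls and its KDR (0.478 and 0.479) the lowest. VEGFA over VEGFB per kb was 0.325 in BAT and 0.254 in thyroid of Control 2, against 2.08 and 1.87 in Control 1 and 0.816 and 3.01 in Control 3. The treated lambs had 0.200 to 0.387 in BAT, a range that holds Control 2, and 0.701 to 1.82 in thyroid, all above it.

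In thyroid, VEGFA, FLT1 and NRP2 were called lower in both treated groups than in Controls 1 and 3: 3 of 9 members in each comparison, beside 8.04% of 16122 genes in cold and 7.81% in AT. The comparisons share their controls. The median gene was itself lower, at -0.28 in each, and TMM scaling moved that median to 0.02 in cold and 0.05 in AT, under which none of the members was called by edgeR. DESeq2's Wald test with the reference-gene size factors called the same 3 members in each.

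VEGFA in thyroid had 16090 normalized counts in Control 1, 4984 in Control 2 and 43360 in Control 3. Cold lambs had 9456 to 14426 with a median of 11673, and AT lambs 10258 to 18038 with a median of 12648. All cold lambs lay below Controls 1 and 3, 1 AT lamb lay above Control 1, and all 12 lay above Control 2. The log2FC was -1.32 ± 0.28 in cold (adjusted p = 0.00762, edgeR) and -1.16 ± 0.28 in AT (adjusted p = 0.0124, edgeR), and under TMM scaling it was -0.97 and -0.76. The size came from Control 3: against it alone the log2FC was -1.88 and -1.71, both called, against Control 1 alone -0.41 and -0.25, neither called, and against Control 2 alone 1.25 and 1.42, both called in the opposite direction. With Control 2 in the place of Control 3 it was 0.18 and 0.35. The library of Control 3 was also the one with the highest summed follicular markers, as given above, and the part of follicular RNA in the value was not tested. The thyroid library of Control 2 was the one with the highest counts of parathyroid genes. The part of parathyroid RNA in its values was not tested. Control 1, as given above, had 274238 summed normalized counts of skeletal muscle markers in thyroid, below AT 3 alone. The part of muscle RNA in the values of these libraries was not tested.

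NRP2, a co-receptor of VEGFC as well as VEGFA, showed the same dependence. It had 809 normalized counts in Control 1, 401 in Control 2 and 2095 in Control 3, against 526 to 720 in cold and 452 to 833 in AT. The log2FC was -1.23 ± 0.26 and -1.21 ± 0.27, moved to -0.36 and -0.34 against Control 1 alone, and was 0.03 and 0.06 when Control 2 took the place of Control 3. FLT1 in thyroid had 1036, 1436 and 2818 normalized counts in Controls 1, 2 and 3, with 729 to 1305 in cold and 543 to 1109 in AT. Control 3 again lay above every treated lamb, while Control 1 lay within both groups. Its log2FC was -1.01 ± 0.32 in cold (adjusted p = 0.0401, edgeR) and -1.20 ± 0.32 in AT (adjusted p = 0.0175, edgeR). With all 3 controls FLT1 was at -0.88 in cold, under the fold threshold, and at -1.07 in AT, where it was the only member still called (adjusted p = 0.0211, edgeR). With Control 2 in the place of Control 3 it was -0.37 and -0.55, and with Control 1 alone -0.09 and -0.28, none of them called. The cold call was lost in 7 of the 12 fits that left out 1 treated lamb, with a log2FC of -1.12 to -0.95, and the AT call in none of them.

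VEGFC, the lymphatic ligand, moved less but more evenly across the study's controls. Controls 1 and 3 had 1381 and 1575 normalized counts, Control 2 had 789, cold lambs had 798 to 1233 and AT lambs 614 to 1044. All 12 treated lambs thus lay below both controls of the study, and Control 2 lay below the cold lambs and within the AT lambs. The log2FC was -0.60 ± 0.19 in cold (adjusted p = 0.0406, edgeR) and -0.79 ± 0.19 in AT (adjusted p = 0.0117, edgeR), under the fold threshold, and -0.29 and -0.46 under TMM scaling, where neither adjusted p was below 0.05. With all 3 controls it was -0.36 and -0.54, also without passing. KDR had 2085, 990 and 5012 normalized counts in Controls 1, 2 and 3, with 1878 to 2923 in cold and 1983 to 2908 in AT. Its log2FC of -0.61 ± 0.26 and -0.59 ± 0.26 did not pass the test, nor did those of FLT4 (-0.61 and -0.67), NRP1 (-0.35 and -0.39) or VEGFB (-0.17 and -0.08).

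**Figure D4:**
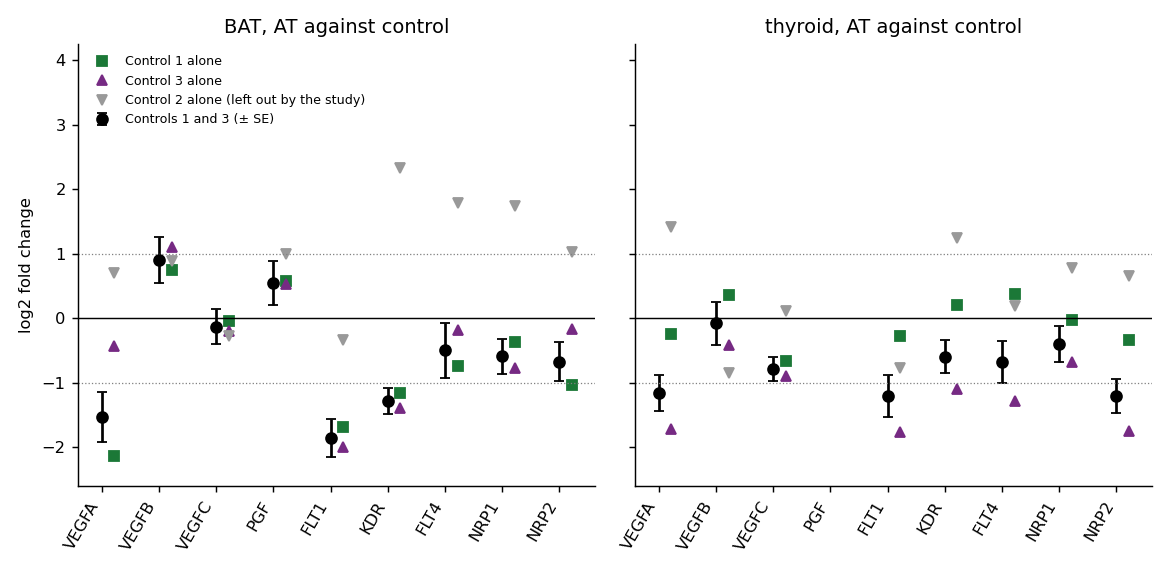
Fitted log2 fold change of AT against control for each member in BAT (left) and thyroid (right), with Controls 1 and 3 as the baseline (black, ± SE) and with each control lamb alone (green square Control 1, purple triangle Control 3, grey triangle Control 2); dotted lines mark a log2 fold change of 1 in size. FLT1 in BAT was below -1 with Control 1 or Control 3 alone, and VEGFA in BAT was -2.13 and -0.43. PGF was under the read filter in thyroid.

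Cold and AT lambs did not differ by the test for any member in thyroid, where 0% of genes (0 of 16122) were called by edgeR, 870 had an unadjusted p below 0.05, DESeq2 called 0 of the members, and the members' log2FC lay between -0.16 and 0.19. PGF, at 3 to 23 reads per treated lamb, was under the read filter there. Its cold lambs had 2.61 to 10.8 normalized counts and its AT lambs 11.1 to 21.2, and these groups did not overlap. The exact 2-sided permutation test gave p = 0.00216, the smallest it can give with 6 lambs against 6. With no read filter the log2FC was -1.30 ± 0.40 (adjusted p = 0.784, edgeR), and Controls 1 and 3, with 6.46 and 10.4, lay within the cold range, while Control 2, with 20.3, lay within the AT range.

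Whether the treatment differences themselves differed between the tissues was tested as an interaction over both tissues. None of the 9 members was called, where 0.182% of genes were for cold against control, 1.66% for AT against control and 0% (0 of 17021) for cold against AT; in the last, 1340 genes had an unadjusted p below 0.05. The difference of cold against AT for FLT1, thyroid minus BAT, was -0.94 ± 0.33 (unadjusted p = 0.00787, adjusted p = 0.421, edgeR). The FLT1 difference in BAT was thus not shown to differ from that in thyroid.

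Levels in the 2 tissues of the same lamb were compared across the 12 treated lambs, in 9 relations. VEGFC had Pearson's r = -0.74 (permutation p = 0.00589) and Spearman's rho = -0.66 (permutation p = 0.0234), with r = -0.74 within cold and -0.83 within AT. Without the 2 lambs farthest from the median in BAT, cold 4 and AT 5, r was -0.53. The threshold of 0.05 divided over 9 relations is 0.00556, which the Pearson p missed; with TMM scaling r was -0.74 (permutation p = 0.00499) and rho -0.55 (permutation p = 0.0699). The other 8 members had r between -0.22 and 0.35, with permutation p of r at least 0.269. VEGFA had r = -0.22 (permutation p = 0.494) and rho = -0.30 (permutation p = 0.34).

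Variation of the members within a tissue was described over the 12 treated lambs, with no test. FLT1 followed KDR with r = 0.77 and rho = 0.84 in BAT, rank 94 among 12409 named genes, and with r = 0.74 and rho = 0.78 in thyroid, rank 47 of 13035. Without the 2 libraries farthest from the median KDR, r was 0.69 and 0.76. Within groups, the BAT value was 0.59 in cold and 0.16 in AT, and the thyroid value 0.64 and 0.94. NRP1 followed KDR with r = 0.63 in BAT and 0.59 in thyroid. VEGFA had r = -0.21 with KDR in BAT (0.35 in cold, -0.14 in AT) and 0.12 in thyroid (0.75 in cold, -0.42 in AT). VEGFB had r = 0.79 with VEGFA in BAT, rank 533, with 0.73 without the 2 farthest libraries, 0.95 in cold and 0.74 in AT. In thyroid it had r = 0.62, rank 874, with 0.41 without the 2 farthest libraries, 0.38 in cold and 0.87 in AT. The genes most like KDR were TINAGL1 (r = 0.95), DISC1 (0.94) and TBX3 (0.90) in BAT and SETD4 (0.88), KCNN3 (0.87) and the Norrin receptor FZD4 (0.87) in thyroid. Within cold and AT in BAT, r with KDR was 0.57 and 0.96 for TINAGL1, 0.91 and 0.88 for DISC1, and 0.86 and 0.62 for TBX3. The genes most like VEGFA were YJEFN3 (0.95), VWCE (0.94) and NUP50 (0.93) in BAT and ZNF384 (0.93), CLCN6 (0.93) and ZNF236 (0.90) in thyroid. All points of a correlation share their library's scaling. Under TMM scaling 2 of the 3 genes remained in each case: YJEFN3 and VWCE, ZNF384 and CLCN6, TINAGL1 and DISC1, SETD4 and FZD4. With that scaling r with KDR in BAT was 0.11 in cold and 0.98 in AT for TINAGL1, and 0.44 and 0.91 for DISC1.

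The kinases, adaptors and effectors downstream of the receptors were followed as a list. Of 36 tested genes of VEGF signalling, 1 was called lower in BAT in cold (NOS3, the endothelial nitric oxide synthase, -1.40 ± 0.30) and 3 in AT (NOS3 -1.87, MAP2K1 -1.08 and HSPB1 just past the fold threshold). In thyroid, 3 were called lower in cold (NOS3 -1.53, PRKCA -1.46, MAPKAPK2 -1.16) and 2 in AT (NOS3 -1.46, PRKCA -1.44). None was called higher. Of all genes, 1.21% and 6.02% were called in BAT and 8.04% and 7.81% in thyroid, in either direction, in cold and AT. The 3 calls in BAT of AT lambs became 1 under TMM scaling and 1 with all 3 controls. List medians were -0.09 and -0.19 in BAT and -0.51 and -0.51 in thyroid, beside -0.10, -0.03, -0.28 and -0.28 for all genes.

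Among VEGF-responsive genes of endothelial cells, 1 of 13 was called lower in BAT in cold and 3 of 13 in AT, beside 1.21% and 6.02% of all genes. APLN, which encodes the tip cell peptide apelin, had a log2FC of -2.78 in cold and -4.34 in AT. In AT the feedback inhibitor SPRY4 had -2.81 and the protease gene ADAMTS1 had -1.95. In thyroid, 6 of 14 were called lower in each comparison, beside 8.04% and 7.81% of all genes, among them the tip cell gene ESM1 (-3.03 in cold, -1.95 in AT), the calcineurin inhibitor RCAN1 (-2.70 and -2.42), the phosphatase gene DUSP5 (-2.23 and -2.18) and SPRY4 (-1.82 in cold). List medians were -0.70 and -0.43 in BAT and -1.28 in cold and near -1 in AT in thyroid, with all-gene medians of -0.10, -0.03, -0.28 and -0.28. The BAT medians were -0.34 and -1.02 with all 3 controls. With all 3 controls, 3 and 4 were called lower in BAT, 1 higher in each, and 5 lower in each thyroid comparison; TMM scaling gave 6 and 4 in thyroid. In cold against AT edgeR called no gene of either list in either tissue.

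Other ligands, traps and modulators of the family were also counted. In thyroid, 2 of 23 were called lower in cold and 4 in AT (2 under TMM scaling), beside 8.04% and 7.81% of all genes, among them SEMA3F, a neuropilin ligand (-1.91 in cold, -1.73 in AT), and THBS1, an angiogenesis inhibitor (-1.84 and -1.92). In BAT, none of 22 was called by edgeR in cold, where TMM scaling called 2 higher, and 4 were called in AT: TIMP3 (-1.22), which blocks KDR, the semaphorin co-receptors PLXNA2 (-1.21) and PLXNA1 (-1.10), and SEMA3B at 1.46, beside 6.02% of all genes. With all 3 controls 2 were called higher and 2 lower in cold, and 4 higher and 2 lower in AT. Transcription factors and coactivators known at VEGFA were all below control in 3 of the 4 treated comparisons and 8 of 9 in BAT of cold lambs, where none was called. Of all genes, 58.8% and 52.4% lay below control in BAT and 70.2% and 68.5% in thyroid, in cold and AT. Under TMM scaling 8 of 9 lay below control in cold and 9 in AT in BAT, and 8 and 7 in thyroid. ETS1 was called in BAT of AT lambs (-1.29), a call lost under TMM scaling. In thyroid 5 of 9 were called in cold, led by ESRRA (-1.36), ETS1 (-1.26) and PPARGC1A (-1.23), and 4 in AT, beside 8.04% and 7.81% of all genes. TMM scaling left 1 call in cold and 0 in AT.

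Genes induced by hypoxia, the main inducer of VEGFA, were called lower for 1 of 20 in BAT of cold lambs, the collagen prolyl hydroxylase P4HA1 (-1.64 ± 0.28), and for 5 in AT, led by P4HA1 (-2.14), ANKRD37 (-2.05), EGLN3 (-1.51) and LDHA (-1.48). Of all genes, 1.21% and 6.02% were called. The list medians were -0.29 and -0.48, beside -0.10 and -0.03 for all genes. With all 3 controls the counts were 2 and 6. In thyroid 2 were called lower in cold, NDRG1 (-1.27) and BNIP3 (-1.06), and NDRG1 (-1.25) alone in AT, beside 8.04% and 7.81% of all genes. The list medians were -0.44 and -0.19 against -0.28 for all genes in both, so that the AT median lay above it. TMM scaling left none lower and called 1 gene higher in AT.

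Endothelial markers in thyroid had a list median of -0.66 in cold and -0.58 in AT beside -0.28 for all genes. Of the 16, 3 were called lower in cold, ROBO4 (-1.84), PECAM1 (-1.30) and CDH5 at the fold threshold, and 2 in AT, ROBO4 (-1.59) and PECAM1 (-1.25), and under TMM scaling 1 in each; 8.04% and 7.81% of all genes were called. Their summed normalized counts were 28074 to 37280 in cold, 28511 to 50358 in AT, and 46736, 45282 and 69106 in Controls 1, 2 and 3. The highest sum was thus again that of Control 3. EGFL7 made up 23967 of the sum of Control 2, its highest value in thyroid. In the same library CDH5, TEK, ERG, EMCN, ESAM, CLEC14A, SOX17 and SOX18 were each at their lowest in thyroid, with the other markers in between. Relative to the markers, FLT1 was 0.234 in Control 1 and 0.437 in Control 3, and 0.207 to 0.367 in the 12 treated lambs.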

How the data were processed

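Per the labels and the study's methods, the authors trimmed paired reads, aligned them with STAR 2.7.7a to Oar_rambouillet_v1.0 and counted reads per gene with featureCounts (Subread 2.0.0), and they deposited 1 table of raw counts for 30 libraries. Whether counting used strand is not given in the sources used here. The table names sequences by accession. Chromosome numbers were assigned from the named genes on each sequence in RefSeq's gene table of ARS-UI_Ramb_v3.0, and no coordinates of that build were used.

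A gene entered the fit of a tissue when 10 or more of its libraries held 10 or more reads, and genes were fitted with edgeR 4.0.16 (robust quasi-likelihood, all 3 groups in each fit) in R 4.3.3. Offsets were size factors of ACTB, RPL19 and HUWE1 from DESeq2 1.42.0. A log2FC is given ± SE. The fits of 2 groups used the genes of the fit of 3 groups. Exact permutation tests used log2 (normalized count + 1), and correlations used 100000 permutations in scipy 1.17.1. Both tissues were fitted together for the tissue comparison and its interactions. Scripts were tested on simulated data. Both tissues of a lamb share its ID in the labels. The correlation of their deviations from group means over 14403 genes was -0.0028 to 0.371 in the 12 treated lambs, so a fit with lamb as a block was run as well.

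The 2 controls of the study were identified by matching its normalized values of a few genes to the count table, and controls are numbered in accession order. Groups were taken from the labels. The members and the 14 gene lists were chosen with earlier results of these data known. List genes past the threshold were named by size, at most 4 per list and direction; genes like VEGFA or KDR were the 3 named genes with the highest Pearson's r. Depth per library is given with the samples, and within a tissue the p-values measure the spread between lambs. In the main fit of both tissues, the 2 libraries of a lamb were taken as independent, so those p-values measure the spread between libraries. Alternatives were other controls, scalings, filters, tools, covariates and libraries left out.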

Additional observations from a re-analysis of the deposited data

Results flagged for a closer look

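FLT4, the lymphatic receptor, had a lamb far above the others of its group in BAT of both treated groups. In AT lambs, AT 6 had 1097 normalized counts against 214 to 489 in the other 5, and in cold lambs, cold 2 had 787 against 420 to 551. These were 2 of 36 groups of 6 lambs examined by Dixon's test, and chance gives about 1 in 20. The same libraries had the highest summed normalized counts over 6 lymphatic endothelium markers in BAT, 5116 in AT 6 and 3217 in cold 2, against 655 to 2333 in the other 13 libraries. The part of lymphatic vessels in the FLT4 values was not tested. FLT4 was called in none of the BAT comparisons (log2FC -0.33, -0.50 and 0.17 in cold against control, AT against control and cold against AT).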

How the results depend on the processing

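A control left out was replaced by Control 2, so those fits both dropped and added a lamb. The number of members called depended mainly on the controls and, in thyroid, on the scaling. In cold against control in BAT it was 1, and 0 with all 3 controls or Control 3 alone, 2 with Control 2 alone, and 0 to 1 with 1 library left out. In AT against control in BAT it was 3, and 1 with all 3 controls or Control 1 alone, and 1 to 4 with 1 library left out. With all 3 controls and TMM scaling the number in BAT was 1 in cold (VEGFA) and 2 in AT (FLT1 and VEGFA). In cold against AT in BAT it was 1, and 0 with all 3 controls, with these and TMM scaling (an alternative chosen after seeing the data), with the RNA integrity number as covariate, with only the 2 groups, and 0 to 1 with 1 library left out. In thyroid it was 3 in each control comparison. It was 0 in both under TMM scaling, median-of-ratios scaling, all 3 controls with TMM, and Control 1 alone. It was 5 in both with Control 3 alone, 0 in cold and 1 in AT with all 3 controls, 1 in AT with only the 2 groups, and 0 to 3 with 1 library left out. The cause was not tested.

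Directions turned against Control 2 alone. In BAT this was so for VEGFA (0.37 in cold, 0.70 in AT), KDR (2.83, 2.33) and NRP1 (2.07, 1.74), and in thyroid for VEGFA (1.25, 1.42), KDR (1.23, 1.25) and NRP2 (0.62, 0.65). Of these, KDR and NRP1 in BAT and VEGFA and KDR in thyroid were called higher. Not called, but also turned, were FLT4 (1.91, 1.79), NRP2 (0.83, 1.02) and, in cold, FLT1 (0.76) in BAT, and NRP1 (0.82, 0.78), VEGFC (0.30, 0.12) and FLT4 (0.26, 0.19) in thyroid. With 1 library left out in this way, VEGFA ranged from -1.67 to 0.075 in AT in BAT, and in thyroid from -1.38 to 0.18 in cold and -1.24 to 0.35 in AT, while NRP2 ranged from -1.28 to 0.033 and -1.30 to 0.061 there. The positive ends all came from fits in which Control 2 took the place of a control. With Control 3 alone VEGFA in AT in BAT was -0.43, and with Control 1 alone VEGFA in thyroid was -0.41 and -0.25 and NRP2 -0.36 and -0.34. With lamb as a replicate block the tissue comparison called 6 members, all 6 shared with the fit without it, and no call changed in the interactions. Within a tissue, no paired analysis was possible because each group holds other lambs. Depth limited PGF in thyroid, at 3 to 23 reads in treated lambs.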

Other observations

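Macrophage markers were the only 1 of the marker lists with genes called higher than control in thyroid. Of 6 listed markers 4 were tested, as C1QB and CD163 were not in the count table. In cold, 2 of the 4 were called higher than in Controls 1 and 3, the complement gene C1QA (2.98 ± 0.48) and the colony-stimulating factor receptor CSF1R (1.41 ± 0.29). In AT, C1QA (2.19 ± 0.46) was called higher, and 1 of the 4 lay below control. Of all genes, 8.04% and 7.81% were called in either direction. With all 3 controls the counts called higher were 2 and 1, and with TMM scaling 2 and 2. Their summed normalized counts were 1554 to 3474 in cold, 1377 to 2549 in AT, and 1129, 1386 and 1027 in Controls 1, 2 and 3. In BAT none of the 4 was called higher. CD68 was called lower in AT at -1.03, beside 6.02% of all genes, a call lost under TMM scaling and with all 3 controls.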
